A study of Mus musculus with 6 samples.

Results

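Erythroid regulators and red cell membrane genes were followed as a set of 34 genes, matched by Ensembl ID to 34 of the 56884 rows of the deposited count table. The set was drawn from knowledge of red cell formation, with earlier results of these data already known. It holds 7 early regulators (Gata1, Klf1, Tal1, Nfe2, Gfi1b, Zfpm1 and Epor) and 7 genes of the membrane skeleton. It also holds 11 membrane proteins, 5 genes of terminal maturation and 4 enzymes. RNA sequencing covered 6 libraries of the Eµ-SOX11CCND1 mouse model of mantle cell lymphoma study. The 3 WT libraries came from B cells selected from spleens of wild-type mice (column names beginning BL6), and the 3 P1 libraries, numbered 3, 4 and 5, from unselected spleens of passage 1 recipients in an adoptive transfer of Eµ-SOX11CCND1 cells. The Eµ enhancer drives the transgenes in B lineage cells. An unselected spleen can also hold the host's own blood-forming cells, and the source of the red cell RNA was not tested. Strain of the recipients, ages, any conditioning before transfer and spleen weights are not given in the sources used here. Because only the WT samples were selected for B cells, selection, disease and the cell mixture of a whole spleen cannot be told apart in these comparisons. In bulk RNA, fewer cells of a type and less RNA per cell cannot be told apart either.

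Red blood cells form in the bone marrow and, in mice, also in the red pulp of the spleen, which enlarges its output under stress or when the marrow is occupied by other cells. Erythropoietin acts through the receptor Epor on early precursors, and the transcription factors Gata1, Tal1 and Klf1 bind GATA, E-box and CACCC letters near genes that build the cell. Later precursors make globin and haem, assemble a spectrin and ankyrin skeleton under the membrane around the anion exchanger Slc4a1, condense and expel the nucleus, and leave as reticulocytes. Regulators are therefore known to come on early and membrane and skeleton genes to reach their highest levels late.

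Promoter sequence was available in the RefSeq promoter table (GRCm38.p6) for 26 of the 34 genes, with 32 windows covering the 250 bases before an annotated start. The GATA letters AGATAA or TGATAA, or with a final G the strings AGATAG or TGATAG, were found on either strand in 17 of the 26 genes (65.4%), against 29.7% of all 27025 genes in the table. The KLF strings CACACCC or CACGCCC were found in 8 of 26 (30.8%, against 15.6%), the NF-E2 string TGAGTCA in 3 of 26 (11.5%, against 5.2%), and the E-box CAGATG in 3 of 26 (11.5%, against 16.3%). No kind of string contains another, though edge letters can overlap, and a match describes letters only, not binding. By window, GATA letters were in 53.1% of the members' windows and 26.5% of all 32851. At least 2 kinds of string were in 6 of the 32 windows (18.8%) and in 9.6% of all windows. From these 6, windows are printed if a long enough stretch lay before any annotated exon, and they are cut where such an exon begins. This rule left the regulators Klf1 and Epor, the membrane gene Kel and the maturation gene Trim10. All run 5′ to 3′ on the gene's strand, capitals mark the matched letters on either strand, and positions count back from -1, the base before the start.
Klf1: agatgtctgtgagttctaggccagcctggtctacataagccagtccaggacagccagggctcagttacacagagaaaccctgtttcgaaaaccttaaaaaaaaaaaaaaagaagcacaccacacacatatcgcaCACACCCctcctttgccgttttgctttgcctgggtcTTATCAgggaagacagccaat
Epor: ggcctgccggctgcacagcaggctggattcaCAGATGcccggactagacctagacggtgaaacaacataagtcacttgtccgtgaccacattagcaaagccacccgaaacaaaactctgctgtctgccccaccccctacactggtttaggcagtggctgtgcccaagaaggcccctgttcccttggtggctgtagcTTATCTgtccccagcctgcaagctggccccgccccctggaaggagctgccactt
Kel: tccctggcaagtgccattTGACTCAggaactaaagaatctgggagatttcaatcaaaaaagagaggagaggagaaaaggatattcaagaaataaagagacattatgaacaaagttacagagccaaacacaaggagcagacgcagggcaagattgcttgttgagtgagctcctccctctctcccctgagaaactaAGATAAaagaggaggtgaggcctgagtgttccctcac
Trim10: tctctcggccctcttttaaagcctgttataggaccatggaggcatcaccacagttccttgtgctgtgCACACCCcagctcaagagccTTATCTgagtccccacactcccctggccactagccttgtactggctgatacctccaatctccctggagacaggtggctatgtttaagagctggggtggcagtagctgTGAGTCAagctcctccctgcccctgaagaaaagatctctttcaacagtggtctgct
The Klf1 stretch is chr8:84901732-84901922 on the plus strand, with a KLF string at position -116 and a GATA string on the opposite strand at -80; an E-box at -59 lies just past it. Epor (chr9:21963577-21963826, minus strand) has an E-box at -219 and a GATA string at -54. Kel (chr6:41704345-41704575, minus strand) has an NF-E2 string at -232 and a GATA string at -56; another GATA string at -19 lies past the stretch. Trim10 (chr17:36869324-36869573, plus strand) holds 3 kinds, KLF at -183, GATA at -163 and NF-E2 at -56. Gata1 and Zfpm1 had only KLF letters in their windows, and Gfi1b and Tal1 only GATA letters.

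All libraries were sequenced to a like order of depth, from 7510327 to 14266132 counts. The P1 libraries differed among themselves in content: mitochondrial genes took 3.4, 17.4 and 0.0854% of counts in P1 replicates 3, 4 and 5, and globin genes 2.9, 11.7 and 0.476%. P1 replicate 4 also had the lowest scaling factor (0.578, against 1.086 to 1.184 in the others), so its normalised values are raised most by the scaling. Orders of replicates 3 and 4 are therefore given for TMM scaling, and replicate 4 was the higher of the pair in 21 erythroid genes with TMM scaling but in 8 with plain library totals. Levels are given as CPM, counts scaled to a common library total after TMM adjustment, and log2 fold changes with their standard error and adjusted p come from the edgeR quasi-likelihood test over all 15462 tested genes, with n = 3 per group. Of those genes, 27.9% were called in either direction, 16.9% as higher and 11.0% as lower in P1 spleen, and 60.6% of calls were higher. That split was 99.4% when libraries were scaled to equal levels of B cell genes, which also moved the all-gene median from 0.02 to 3.09 on the log2 scale. The pan-B cell genes summed to 10400 to 11300 CPM in WT and to 1550, 1070 and 3000 CPM in P1 replicates 3, 4 and 5, so the selected WT samples carried the B cell markers of their label.

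Red cell genes of every role were higher in the P1 spleens. Of the 34 genes, 33 were tested and 33 were called higher, where 16.9% of all tested genes were. As the set was chosen with earlier results of these data known, that count is not independent of them. In these 33 genes the P1 libraries all lay above the WT libraries, an arrangement found in 22.9% of all tested genes. The remaining gene, Icam4, an adhesion protein of red cell precursors, had 0 counts in all 6 libraries. All 1110 of its exon bases are overlapped on the opposite strand by Gm47079, which had 1 to 9 counts per library, so the zero is not read as absence. Of the 33, 10 did not reach the filter level in every WT library and entered the test with the help of P1, which favours a higher call. The other 23 reached it in every WT library as well, and all 23 were higher. Together the 34 genes took 0.0528 to 0.0589% of counts in WT, and 2.3, 2.42 and 0.572% in P1 replicates 3, 4 and 5.

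**Figure D1:**
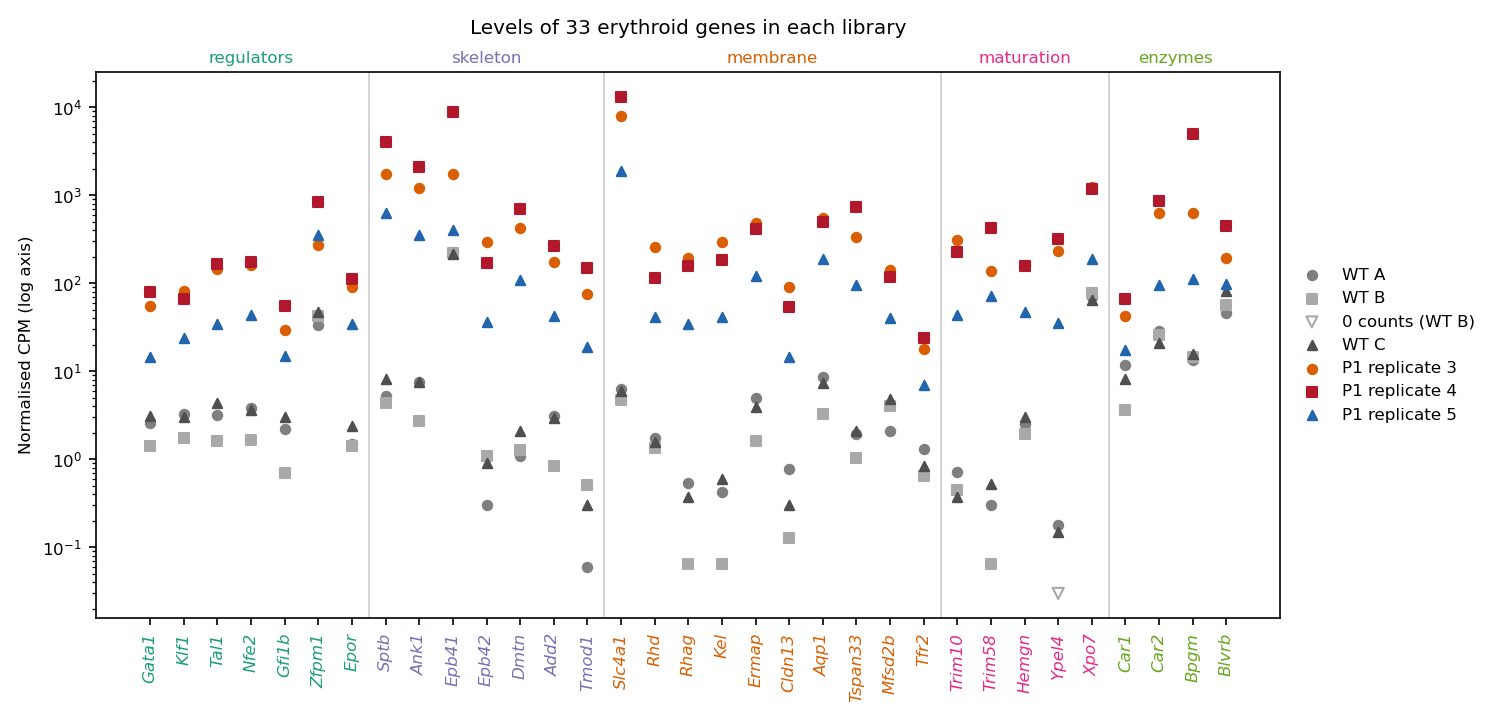
Normalised CPM (log axis) of the 33 detected erythroid genes, 1 point per library, grouped by role; the open triangle marks 0 counts. The 3 P1 spleens lie above the 3 WT samples for each gene, with P1 replicate 5 the lowest P1 spleen in 32 of 33.

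Among the early regulators, Gata1, the master factor of the lineage (chrX:7825499-7844310 in the table's GRCm39 coordinates), stood at 2.61 CPM in WT A, 1.41 in WT B and 3.10 in WT C, and at 55 CPM in P1 replicate 3, 80.3 in replicate 4 and 14.7 in replicate 5. This gave a log2 fold change of 4.39 ± 0.65 (edgeR adjusted p = 0.00219). The lowest P1 spleen was thus well above the highest WT sample, while the P1 spleens spread among themselves. Klf1, which switches on adult globin and many membrane genes, had 3.27, 1.73 and 3.02 CPM in WT and 81.8, 66.4 and 23.9 CPM in P1, a log2 fold change of 4.42 ± 0.53 (edgeR adjusted p = 0.00096). Tal1, the E-box partner of Gata1, had 3.21, 1.61 and 4.38 CPM against 144, 168 and 34.5 CPM (5.23 ± 0.68 on the log2 scale). Nfe2, the haematopoietic subunit of the NF-E2 factor that acts at globin genes, had 3.88, 1.67 and 3.63 CPM against 163, 175 and 43.4 CPM (5.37 ± 0.63). For each of these 4 factors WT B was the lowest WT sample and P1 replicate 5 the lowest P1 spleen.

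Gfi1b, a repressor needed in red cell precursors and megakaryocytes, had 2.24, 0.706 and 3.02 CPM in WT and 29.8, 55.3 and 14.8 CPM in P1 (4.06 ± 0.66, edgeR adjusted p = 0.00306). Epor, the receptor for erythropoietin, went from 1.51, 1.41 and 2.42 CPM to 91.2, 112 and 34.9 CPM, and its log2 fold change of 5.48 ± 0.52 was the largest of the regulators (edgeR adjusted p = 0.000579). Zfpm1, the Gata1 cofactor FOG1, stood apart from the other regulators. It was already at 34.1, 43.1 and 47.9 CPM in the selected B cells and reached 273, 852 and 356 CPM in P1 (3.56 ± 0.48, edgeR adjusted p = 0.00154). With TMM scaling it was also the single gene of the 33 whose lowest P1 value was not in replicate 5. After scaling to B cell genes, replicate 5 was lowest for all 33. Zfpm1 made up 67.1, 83.5 and 71.0% of all regulator counts in the WT samples (A to C) and 32.6, 56.4 and 68.2% in the P1 spleens (3 to 5), so sums over the regulators depend strongly on it.

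The membrane skeleton is a spectrin network tied to the lipid bilayer by ankyrin and protein 4.1. Sptb, its beta spectrin, had 5.27, 4.43 and 8.24 CPM in WT and 1730, 4030 and 626 CPM in P1, a log2 fold change of 8.48 ± 0.87 (edgeR adjusted p = 0.000662). Ank1, the ankyrin that links spectrin to Slc4a1, had 7.51, 2.70 and 7.56 CPM against 1230, 2090 and 353 CPM (7.69 ± 0.86). Dmtn, the actin bundler dematin, had 1.09, 1.28 and 2.12 CPM against 422, 703 and 110 CPM (8.10 ± 0.80). All 3 were highest in P1 replicate 4. Add2, the beta adducin that caps actin, went from 3.09, 0.835 and 2.95 CPM to 176, 264 and 42.7 CPM (6.13 ± 0.81). Tmod1, which caps the other end of the filaments, went from 0.0606, 0.514 and 0.302 CPM to 75, 151 and 19.1 CPM (8.09 ± 0.97), with 32.6% of its exon bases overlapped on the opposite strand by Tstd2. Epb42, the protein 4.2 that steadies the ankyrin link, had replicate 3 above replicate 4 within P1, at 293, 170 and 36.0 CPM, over 0.303, 1.09 and 0.907 CPM in WT (7.76 ± 0.91).

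Epb41, protein 4.1, differed from the other skeleton genes in both groups. It had 227, 223 and 217 CPM in the selected B cells and 1750, 8930 and 407 CPM in P1 (4.05 ± 1.02, edgeR adjusted p = 0.0195). Protein 4.1 is made in many cell types. It took 45.5, 46.0 and 41.0% of all counts of the 34 genes in WT, but 8.55, 21.3 and 7.69% in P1. Its call was lost when any 1 WT library was left out (edgeR adjusted p 0.0721 to 0.0889) and without the low-count filter (adjusted p = 0.118). Within its span, the antisense model Gm10300 had 26, 10 and 15 counts in WT and 522, 1075 and 195 in P1, with shared exon bases amounting to 1.4% of Epb41 together with Gm13063.

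The membrane proteins held the highest level of the set. Slc4a1, the band 3 anion exchanger (chr11:102239650-102257029), had 6.24, 4.75 and 6.05 CPM in WT and 7990, 13200 and 1880 CPM in P1, a log2 fold change of 10.40 ± 1.01 (edgeR adjusted p = 0.000579). It alone took 39.0, 31.4 and 35.5% of the 34 genes' counts in P1 replicates 3, 4 and 5, against 0.982 to 1.25% in WT. Under TMM scaling the blood group proteins showed another order of P1 libraries. This contrast with Slc4a1 depends on the scaling, as replicate 3 was above replicate 4 in 25 of 33 genes, Slc4a1 included, with plain library totals. Rhd, the mouse Rh polypeptide, had 259, 116 and 41.8 CPM in P1 over 1.76, 1.35 and 1.59 CPM in WT (6.46 ± 0.71). Rhag, its partner glycoprotein, had 195, 156 and 34.9 CPM over 0.545, 0.0642 and 0.378 CPM (8.56 ± 0.89), and Kel, a surface endopeptidase, had 296, 185 and 41.2 CPM over 0.424, 0.0642 and 0.605 CPM (8.89 ± 0.97). Replicate 3 was highest for each of these 3 genes and for Ermap, Cldn13, Aqp1 and Mfsd2b, 7 of the 10 detected membrane genes.

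Ermap, an erythroid immunoglobulin-like protein, had 484, 413 and 122 CPM in P1 over 5.03, 1.61 and 3.93 CPM in WT (6.59 ± 0.70). Cldn13, a claudin of mouse erythroid cells, had 92.1, 53.5 and 14.6 CPM over 0.788, 0.128 and 0.302 CPM (6.98 ± 0.88). Mfsd2b, which exports sphingosine-1-phosphate from red cells, had 143, 117 and 40.0 CPM over 2.12, 4.05 and 4.84 CPM (4.77 ± 0.56). These 3 share the order of the blood group genes, from replicate 3 down to replicate 5. Tspan33, a tetraspanin of erythroid and activated B cells, was instead highest in replicate 4, with 335, 732 and 95 CPM over 1.94, 1.03 and 2.12 CPM (7.83 ± 0.86). Tfr2, the iron sensor that associates with Epor, was the lowest of the detected genes in P1, also per length, at 17.9, 24.1 and 6.96 CPM over 1.33, 0.642 and 0.832 CPM (4.09 ± 0.58).

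Aqp1, the water channel of red cells and of endothelium, had 558, 496 and 188 CPM in P1 over 8.60, 3.27 and 7.41 CPM in WT (6.01 ± 0.60). Of the endothelial markers, Cdh5 averaged 21.7 CPM and Egfl7 25 CPM in P1, and Kdr, Tek, Emcn and Cldn5 averaged at most 6.5 CPM and were not tested. All 5 tested endothelial markers were highest in replicate 4, unlike Aqp1, and all 9 listed markers summed to 128, 387 and 85 CPM in P1 and 269 to 327 CPM in WT. Pecam1 alone had 84.7, 105 and 74.7 CPM in P1 and 259 to 310 CPM in WT. Of the 5, Cdh5 and Egfl7 were higher and Pecam1 lower in P1; the calls of Cdh5 and Egfl7 were both lost without WT A or without WT C. Their part in the Aqp1 level was not tested.

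Of the maturation genes, Ypel4, a yippee family gene of late erythroblasts, had 0.182, 0 and 0.151 CPM in WT and 234, 320 and 35.4 CPM in P1, the largest log2 fold change of the 34 genes (10.66 ± 1.13, edgeR adjusted p = 0.000748). Its 3 WT libraries held 3, 0 and 2 counts, so the size of that value rests on very few WT reads. The WT counts of 6 genes (Tmod1, Rhag, Kel, Cldn13, Trim58 and Ypel4) came to under 20 over the 3 libraries. Trim58, a ubiquitin ligase that acts on dynein before enucleation, had 0.303, 0.0642 and 0.529 CPM against 137, 424 and 71.2 CPM (9.45 ± 0.97). Trim10, an erythroid ubiquitin ligase whose window is printed above, had 0.727, 0.449 and 0.378 CPM against 311, 226 and 44.0 CPM (8.50 ± 0.85). The 2 Trim genes differed in their highest P1 library, replicate 4 for Trim58 and replicate 3 for Trim10. Hemgn, a Gata1 target found in blood precursors, had 2.55, 1.93 and 3.02 CPM against 164, 156 and 47.0 CPM (5.61 ± 0.55). Xpo7, a nuclear exporter used in erythroblast nuclear condensation and also made elsewhere, had 71.0, 77.7 and 65.5 CPM against 1250, 1170 and 188 CPM (3.60 ± 0.67, edgeR adjusted p = 0.00517), with 7.2% of its exon bases shared with other genes.

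The enzymes ran from the lowest log2 fold change of the set, that of Blvrb, to 7.04 for Bpgm. Bpgm, which makes 2,3-bisphosphoglycerate and so loosens the hold of haemoglobin on oxygen, had 13.5, 14.5 and 15.6 CPM in WT and 627, 5010 and 112 CPM in P1 (7.04 ± 1.36, edgeR adjusted p = 0.0062, and 0.0798 without the low-count filter). It had the widest spread within P1 of the 34 genes, with replicate 4 standing far above replicate 3. Car2, the fast carbonic anhydrase, had 29.1, 25.9 and 20.9 CPM against 624, 861 and 96.2 CPM (4.38 ± 0.74), and Car1, the slower isozyme, 11.8, 3.60 and 8.16 CPM against 42.3, 67.1 and 17.3 CPM (2.42 ± 0.58, edgeR adjusted p = 0.0157). Blvrb, biliverdin reductase B, had 46.0, 57.5 and 81.0 CPM against 194, 449 and 97.7 CPM (2.00 ± 0.54, edgeR adjusted p = 0.0247), with its lowest P1 value only slightly above its highest WT value. The Blvrb call was lost without any 1 of WT A, B or C (edgeR adjusted p 0.105, 0.103 and 0.0501) and the Car1 call without WT B or WT C (0.0611 and 0.0553). Car13, which lies beside Car1 and Car2 on chromosome 3, did not pass the test (24, 36 and 13 counts in WT and 43, 11 and 53 in P1, edgeR adjusted p = 0.0842), and Car3 had at most 2 counts in any library.

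Set side by side, early regulators differed less between the groups than late skeleton and membrane genes. The 7 regulators had log2 fold changes of 3.56 to 5.48, with a median of 4.42. The 17 tested skeleton and membrane genes ranged from 4.05 to 10.40, with a median of 7.69, where the median of all tested genes was 0.02. Of these 17, 14 lay above Epor, the highest regulator, and 3 did not (Epb41, Mfsd2b and Tfr2). The skeleton genes alone had a median of 7.76, the membrane genes 6.78, the maturation genes 8.50 and the enzymes 3.40. Between the medians of the regulators and of the skeleton and membrane genes there was a gap of 3.27 on the log2 scale, and of 2.68 without P1 replicate 4 and 2.75 without P1 replicate 3. Of the 17 skeleton and membrane genes, 11 reached the filter level in every WT library, as did 6 of the 7 regulators. Among those genes the medians were closer, 6.59 and 4.82. These medians are descriptions of a chosen set, whose genes are not replicates, and the gap was given no test.

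**Figure D2:**
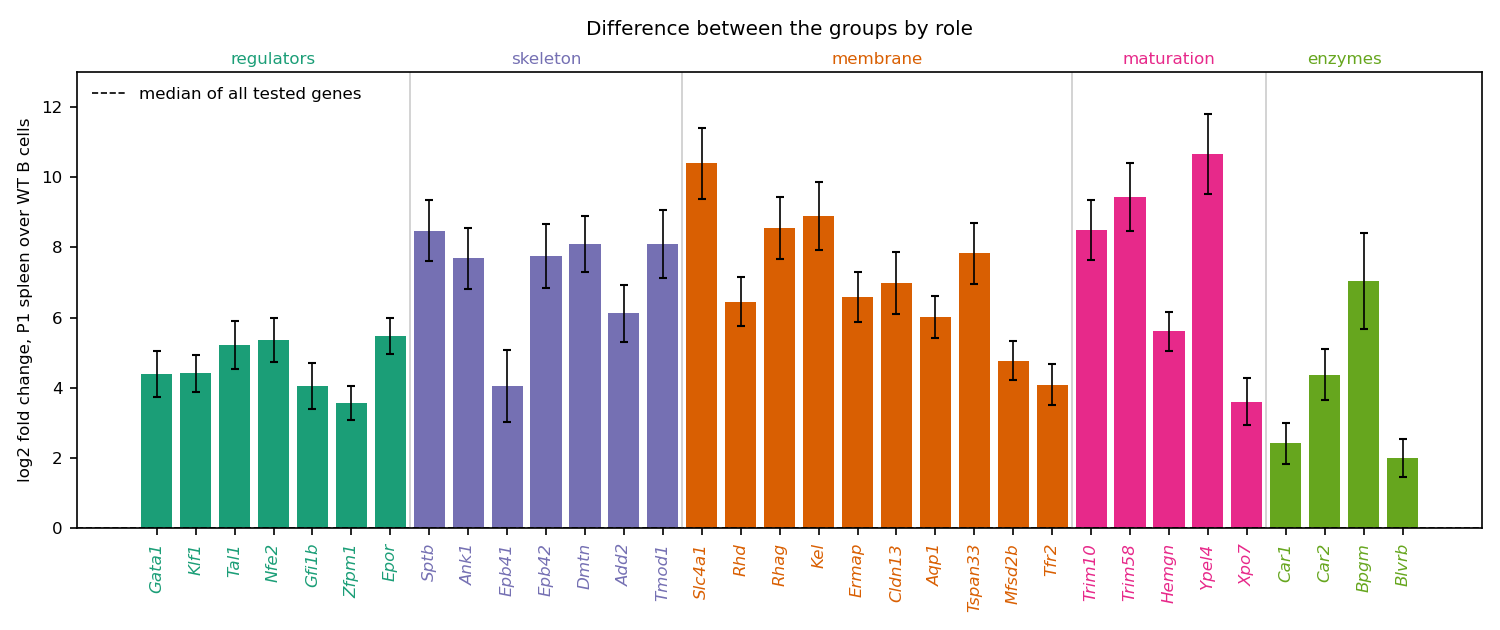
Log2 fold change of P1 spleen over WT B cells for the 33 tested genes, by role; bars start at 0 and whiskers are 1 standard error of the edgeR fit. The regulators lie between 3.56 and 5.48, while 14 of 17 skeleton and membrane genes lie higher. Of these 17, 11 reached the filter level in every WT library.

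Part of this gap lay in the WT samples. Per kilobase of exon, the WT mean of the regulators had a median of 1.02 CPM (0.70 in Tal1 to 11.9 in Zfpm1), and that of the skeleton and membrane genes 0.381 CPM (0.0741 in Tmod1 to 13.6 in Epb41). In P1 the medians per kilobase were 37.4 and 62.7 CPM. By library they were 45.8 against 86.3 CPM in P1 replicate 3, 43.3 against 71.8 in replicate 4, and 14.5 against 14.9 in replicate 5, so in the last spleen early and late genes were at nearly the same median level. Across the 33 genes, the log2 fold change fell with the WT level (Pearson r = -0.65, Spearman rho = -0.64), a description over genes that share libraries and in which the WT level enters both measures. Among the 23 genes that passed the filter level in every WT library the medians were 4.82 for regulators and 6.59 for skeleton and membrane genes.

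Mean levels per length over the 3 P1 spleens were highest in a few late genes. Slc4a1 averaged 1570 CPM per kilobase, Bpgm 534, Epb41 226, Car2 218, Sptb 175 and Aqp1 158. Zfpm1, at 141 CPM per kilobase, was the highest regulator, and the rest of the regulators ran down to 18.2 for Gfi1b. Of the 17 skeleton and membrane genes, 11 fell within this span of the regulators, and Add2 (15.9) and Tfr2 (3.76) lay below it. The late genes thus overlapped widely with the regulators in mean level, with a tail of far higher ones. In P1 replicates 3, 4 and 5 Bpgm had 175, 1400 and 31.1 CPM per kilobase, and Epb41 107, 545 and 24.8. Both means thus rested mainly on replicate 4. In replicate 5 Zfpm1 (102) lay above Aqp1 (71.7), Sptb (51.5), Car2 (39.7), Bpgm and Epb41, and below Slc4a1 (384).

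**Figure D3:**
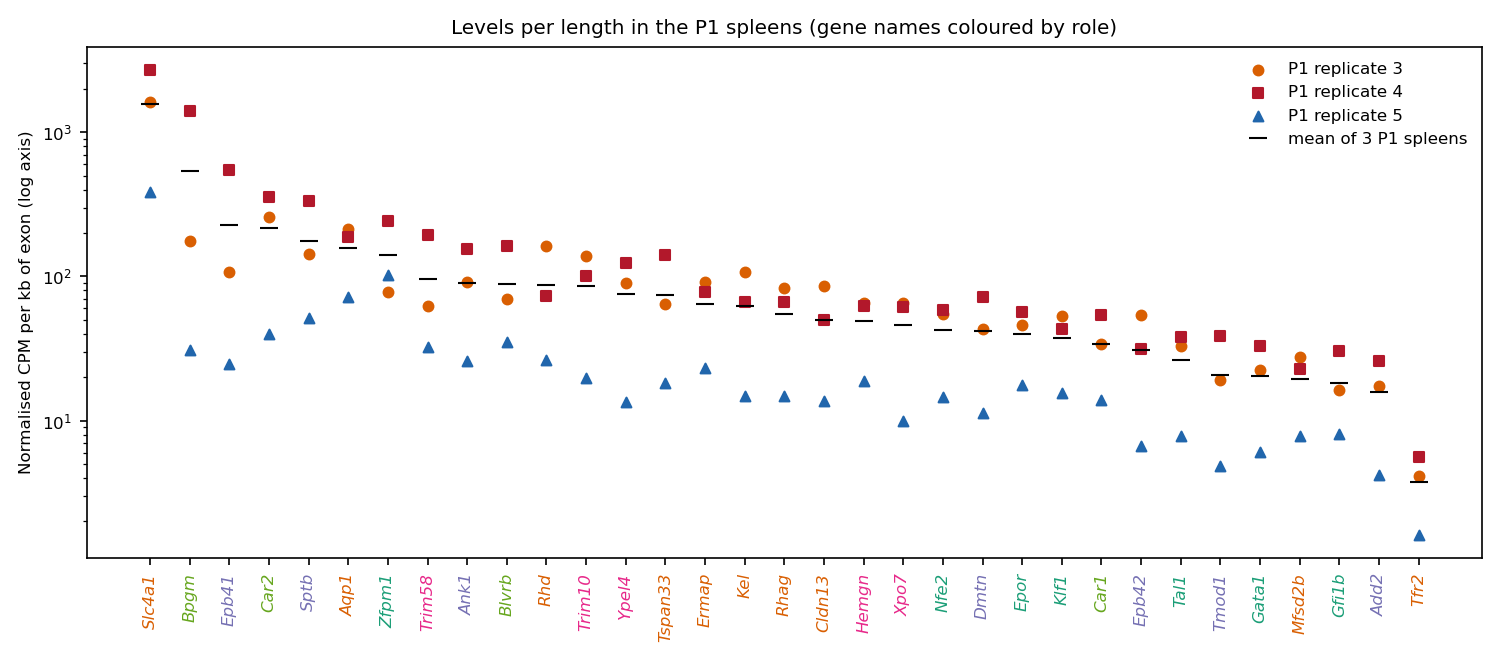
Normalised CPM per kilobase of exon (log axis) of each gene in the 3 P1 spleens, ordered by the mean (dash), with names coloured by role. Slc4a1 averages 1570 and Tfr2 3.76, and the regulators run from 18.2 (Gfi1b) to 141 (Zfpm1).

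Ratios taken inside a library need no scaling between libraries. Counts of skeleton and membrane genes per count of regulators were 5.37, 4.85 and 3.96 in the WT samples and 19.2, 21.1 and 7.77 in the P1 spleens. The groups did not overlap, but the ratio turned on Zfpm1 and Epb41, both also counted in the B cells. Without Zfpm1 the ratios were 16.3, 29.3 and 13.7 in WT and 28.4, 48.4 and 24.4 in P1, and the groups overlapped. Without both genes they were 2.76, 3.26 and 2.56 in WT and 25.3, 34.8 and 22 in P1, and the groups were apart again. Slc4a1 counts per Gata1 count were 2.40, 3.36 and 1.95 in WT and 145, 164 and 128 in P1, close to each other in the 3 spleens although Slc4a1 itself ranged from 1880 to 13200 CPM. Other pairs were not so even: Bpgm counts per Gata1 count were 11.4, 62.4 and 7.57 in P1, and Rhd counts per Gata1 count 4.71, 1.45 and 2.83.

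Within P1, replicate 5 was lowest in 32 of 33 genes with TMM scaling, and in all 33 after scaling to B cell genes. With TMM scaling the median against replicate 3 was -1.93 on the log2 scale. All genes with at least 10 counts in each P1 library (11973) had a median of -0.02. The regulators had a median of -1.77 and the skeleton and membrane genes of -1.99, so early and late genes were low together there. The order of replicates 3 and 4 depended on the scaling, with 21 genes highest in replicate 4 and 12 in replicate 3 under TMM. The order of genes along that difference does not depend on the scaling. At one end stood Rhd (-1.16, replicate 4 over replicate 3 on the log2 scale), Epb42 (-0.78), Cldn13 (-0.78) and Kel (-0.68). At the other end stood Sptb (1.22), Trim58 (1.63), Zfpm1 (1.64), Epb41 (2.35) and Bpgm (3.00). Against the quartiles of all genes (-0.62 and 0.58), 14 members lay above the upper and 4 below the lower one.

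This order did not follow the split into early and late. The regulators ran from -0.30 for Klf1 to 1.64 for Zfpm1 with a median of 0.30, the skeleton genes had a median of 0.76, and the membrane genes a median of -0.26. Outside the set, the 4 adult globin genes ran from 2.84 to 3.01, and the tested reticulocyte clearance genes had a median of 1.58, with Alox15, which was not tested, at -5.88. The haem and iron genes ran from -2.04 (Steap3) to 2.48 (Alas2, the erythroid start of haem synthesis) with a median of 0.23, and 7 of 15 were highest in replicate 3. Over the 33 genes log2 CPM correlated at r = 0.91 to 0.93 between any 2 P1 libraries (rho 0.88 to 0.93), which mostly reflects the shared gene levels. The mitochondrial share also was highest in replicate 4 (17.4%) and lowest in replicate 5, and its part in these differences was not tested.

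**Figure D4:**
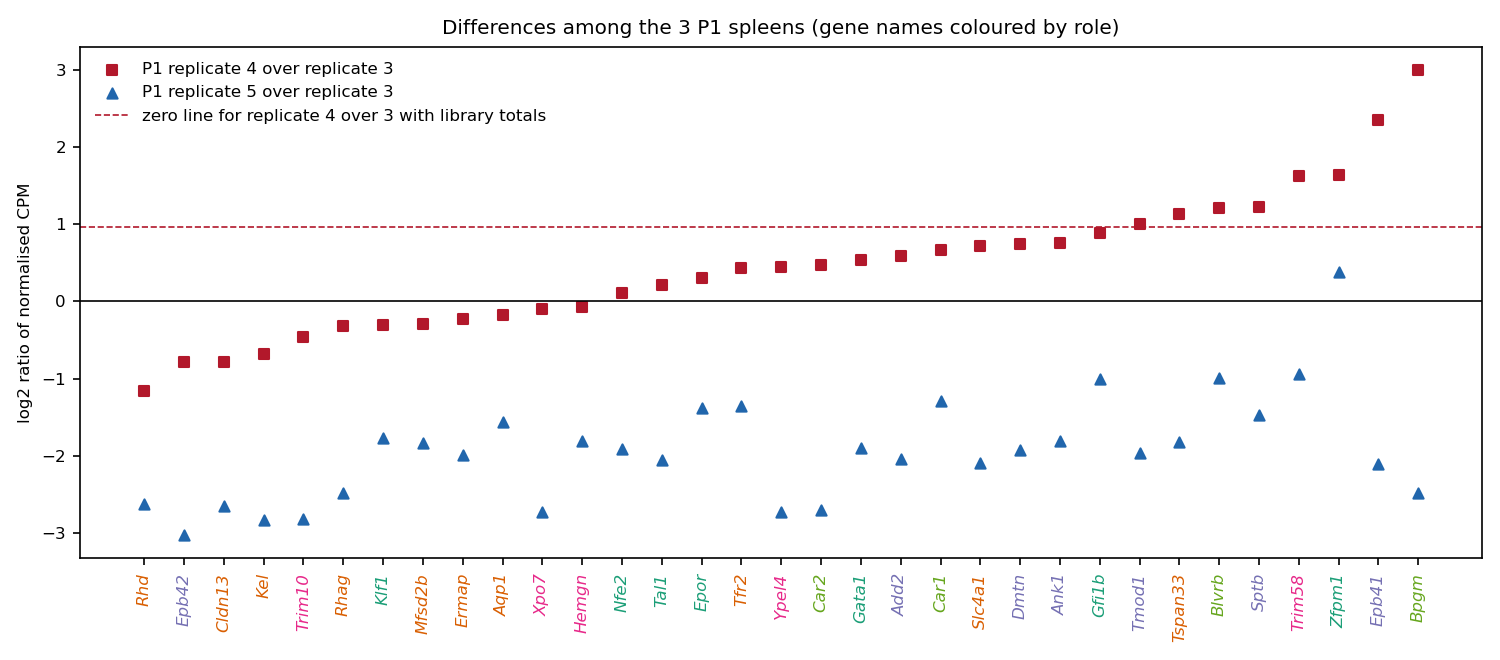
Log2 ratio of normalised CPM of P1 replicate 4 (squares) and replicate 5 (triangles) over replicate 3 for each gene, with names coloured by role; the dashed line is where 0 would lie for the squares with plain library totals. Squares run from -1.16 (Rhd) to 3.00 (Bpgm), and Zfpm1 is the only gene with its triangle above 0.

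Genes around the set were read from lists of the same pathway. Their counts stand beside 16.9% of all tested genes called higher and 11.0% called lower. All 4 tested globin genes, Hba-a1, Hba-a2, Hbb-bs and Hbb-bt, were higher in P1, with a median log2 fold change of 10.89, and they are near-identical pairs between which counting can split reads. Summed globin levels were 43.6 to 64.6 CPM in WT and 25900, 202000 and 4400 CPM in P1. The embryonic genes Hba-x, Hbb-y, Hbb-bh1 and Hbb-bh2 averaged at most 0.124 CPM in either group and were not tested. All 15 haem and iron genes were higher (median 3.11), and 10 of 15 when any 1 WT library was left out. Alas2 (9.72 ± 1.47) and Fech, which inserts the iron (5.79 ± 0.91), had large log2 fold changes, and Tfrc, the transferrin receptor, had 3.27 ± 0.57.

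Of 15 other regulators of blood formation, 5 were higher and 1 lower, where 16.9% and 11.0% of all tested genes were. The remaining listed regulators did not pass the test. Sox6, which acts late with Bcl11a on globin genes, was higher by 7.89 ± 0.99, followed by Myb of early precursors (3.20 ± 0.32), Nfia (2.08 ± 0.46), the stem cell factor receptor Kit (1.71 ± 0.45) and Foxo3 (1.70 ± 0.54). Bcl11a, which B cells also use, was lower by TMM scaling (-2.40 ± 0.42), and after scaling to B cell genes it had 0.44, or -2.65 relative to the median of all genes. The partners of Gata1 and Tal1 in their complex, Lmo2 (0.21 ± 0.36), Ldb1 (-0.09 ± 0.36) and Tcf3 (0.23 ± 0.40), did not pass. Neither did Lyl1 (-0.37 ± 0.38), and all of these genes were at 173 to 362 CPM in WT. Gata2, the GATA factor of earlier precursors, had 2.31 ± 0.94 (edgeR adjusted p = 0.103). The count of 5 dropped to 2 without WT A or without WT B, and to 3 without P1 replicate 3 or with library totals.

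Of all tested genes, 16.9% were higher and 11.0% lower by edgeR. In the pathway below Epor, 5 of 10 genes were higher and 0 lower by edgeR (1 lower at an unadjusted p under 0.05, and 1 lower by DESeq2). Those higher were the feedback inhibitors Cish (4.14 ± 0.64) and Socs2 (4.18 ± 0.60), the iron hormone Erfe (4.13 ± 0.77), the survival gene Bcl2l1 (6.59 ± 1.06) and the kinase Pim1 (2.56 ± 0.63). Socs2 was highest in replicate 5 (10.4, 12.3 and 39 CPM in P1), where Epor was lowest. Socs3, another feedback inhibitor, did not pass (1.01 ± 0.60, edgeR adjusted p = 0.246), with 30.4 CPM in P1 replicate 5 against 45.8 to 84.8 CPM in WT. The shared signal carriers Jak2 (-0.27 ± 0.32), Stat5a (0.32 ± 0.31) and Stat5b (0.19 ± 0.30) did not pass, at 62.1 to 141 CPM in WT. Scaling to B cell genes turned Jak2 to 2.95, where the median of all genes was 3.09. Of 20 other membrane and skeleton genes, 10 were higher, among them the calcium-activated potassium channel Kcnn4 (3.80 ± 0.31) and stomatin, Stom (4.64 ± 0.62). A pair of family members used in other cells, Add3 (-2.22 ± 0.42) and Tmod3 (-1.22 ± 0.24), were lower, and at 0.75 and 1.86 after scaling to B cell genes, both below the median of 3.09, and Add1 was at 0.00 ± 0.30. The erythroid paralogs Add2 and Tmod1 and these broadly used ones thus had values of opposite sign under TMM scaling. Of 11 tested reticulocyte clearance genes 8 were higher, among them Ube2l6 (6.25 ± 1.23), Ube2o (4.68 ± 0.88) and Mkrn1 (4.38 ± 0.90). That count was 4 without the low-count filter and 5 when any 1 WT library was left out.

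Several of the regulators are shared with megakaryocytes and mast cells. The marker counts below stand beside 16.9% of all tested genes called higher and 11.0% called lower. None of 13 tested megakaryocyte and platelet markers was called in either direction by edgeR or by DESeq2, and 0 had an unadjusted p under 0.05. After scaling to B cell genes 10 of the 13 were higher, as were 14101 of all 15462 tested genes. Under TMM scaling the markers had a median log2 fold change of -0.12. Their summed level was 57.9, 90.7 and 169 CPM in WT and 182, 125 and 56.3 CPM in P1. Pf4 averaged 1.54 CPM in WT and 2.53 CPM in P1. Of 8 mast cell and basophil markers 3 were tested, and Hdc alone was higher (4.88 ± 0.38). Summed levels of the 8 were 1.86 to 7.33 CPM in WT and 139, 56.2 and 55.4 CPM in P1. Hdc alone had 81.0, 53.9 and 49.3 CPM in P1, so the sums of replicates 4 and 5 were mostly Hdc. Prss34, a basophil protease, had 0.545, 0 and 1.89 CPM in WT and 37.3, 1.62 and 3.6 CPM in P1 (edgeR adjusted p = 0.0604), and Mcpt8, another, was at 12.8 CPM in P1 replicate 3 (adjusted p = 0.0887); all 3 tested markers were higher at an unadjusted p under 0.05. The mast cell proteases Cma1 and Tpsb2 were at or near 0 in P1 (means of 0 and 0.0387 CPM). Of 12 macrophage markers, which include genes of the macrophages that nurse erythroblasts, 1 was higher (Marco), and the summed level was 366 to 1080 CPM in WT and 2070, 919 and 946 CPM in P1. Neutrophil and T cell markers were all higher in P1, with the neutrophil sum highest in replicate 3 (7430 CPM) and lowest in replicate 4 (1020 CPM), an order unlike that of most red cell genes. The part of these other cells in the results was not tested.

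**Figure D5:**
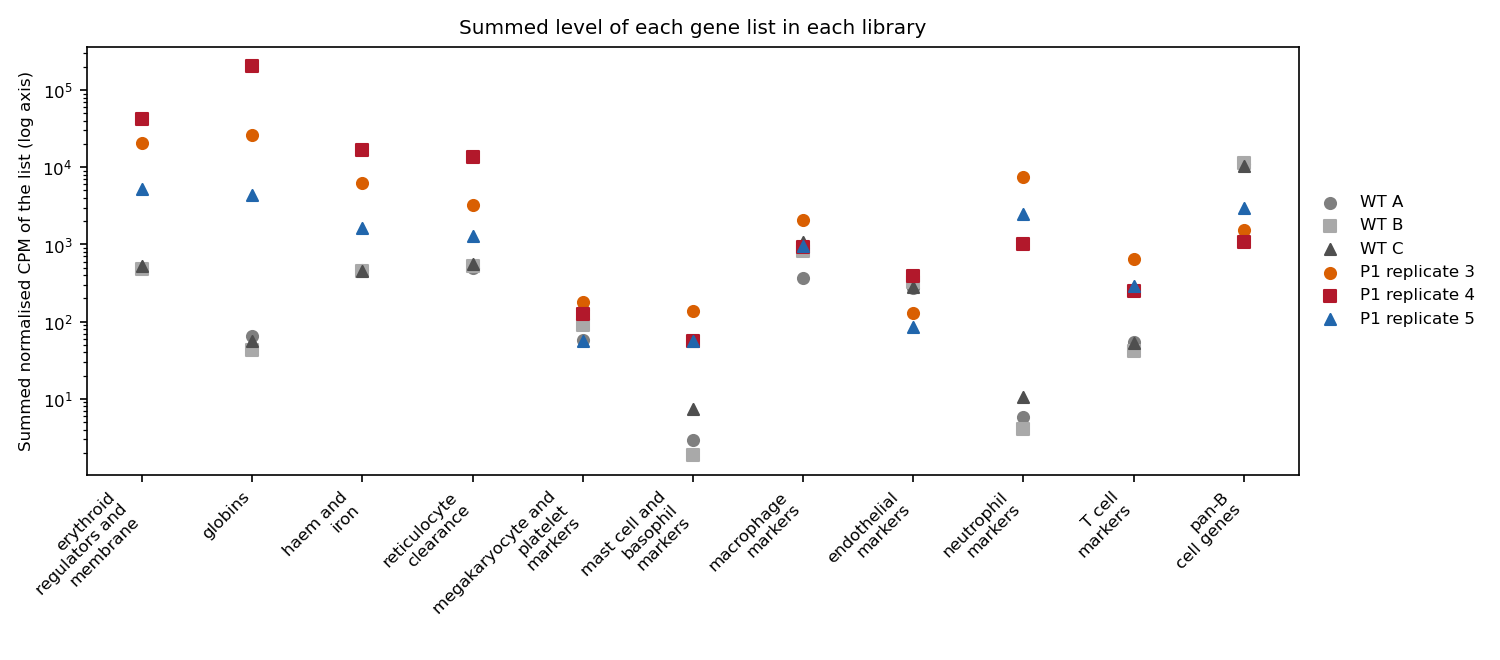
Summed normalised CPM (log axis) of the erythroid set, related pathway lists and cell type markers in each library. The erythroid set, globin, haem and clearance sums lie higher in all 3 P1 spleens than in WT, while the megakaryocyte sums of the groups overlap.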

How the data were processed

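The deposited table holds raw counts per gene for all 6 libraries, made by the authors. Per the labels' protocols, 50 ng of total RNA went into libraries with a directional kit. Per the submitters' processing notes, Trim Galore, HISAT2, featureCounts and GRCm39 were used; their versions and options, and the strand setting of the counting, are not given in the sources used here, so genes overlapping on opposite strands are uncertain. Symbols were given to 51948 of 56884 IDs (91.3%). WT columns could not be tied to single mice and are called A, B and C in column order. The labels name mice but not whether libraries are independent, and the P1 spleens may share 1 transferred clone, so a p-value reflects only the spread among these samples, which may be technical.

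Counts were filtered with filterByExpr (minimum count 10, minimum total 15, here a CPM of 0.887), scaled by TMM and tested without covariates by the quasi-likelihood F-test of edgeR (version 4.0.16 in R 4.3.3, robust fit). Adjusted p is Benjamini-Hochberg at 0.05 over 15462 genes. The standard error is the log2 fold change divided by the root of F, and levels per kilobase divide normalised CPM by the table's exon length. Promoter letters were searched in RefSeq windows of GRCm38.p6, while gene coordinates are those of the table. Totals of 7510327 to 14266132 counts limit genes with few WT counts. The test was also run on simulated data. Alternatives were other scalings (RLE, library totals, TMM without erythroid genes, equal B cell genes), DESeq2 (1.42.0), no filter, and each library left out. The order of P1 libraries under other scalings was added after seeing the data. The members and lists were chosen with earlier results of these data known. All 34 members and all globins were eligible for naming, as were, from each other list, the 3 genes with the smallest adjusted p, the 3 with the highest mean CPM and the first 3 listed, and genes overlapping or beside a member. Further list genes were named after their values were seen. Some list genes are not reported here by name.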

Additional observations from a re-analysis of the deposited data

How the results depend on the processing

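Scaling, test, filter and single libraries were varied one at a time. All 33 tested members stayed above 0 and above the median of all genes in each of the 12 alternatives, and 30 to 33 were called higher, with 31 called without the low-count filter, 31 without WT A, 30 without WT B and 30 without WT C. The calls lost were those of Epb41, Bpgm, Blvrb and Car1, as given with each gene; fewer samples or more tested genes enter those fits. Leaving out 1 library gave 1644 to 3206 genes higher and 815 to 2313 lower, 30 to 33 members higher and 0 lower, a regulator median of 4.15 to 4.81 and a skeleton and membrane median of 7.01 to 8.11. Scaling to equal B cell genes shifted the median of all genes to 3.09 and gave 14101 genes higher and 88 lower, with medians of 7.76 for the regulators and 11.0 for the skeleton and membrane genes, which are 4.67 and 7.91 above the median of all genes. The same scaling turned Ldb1 to 3.21, Lyl1 to 2.51, Runx1 to 2.46, Bcl11a to 0.44, Zbtb7a to 2.81, Jak2 to 2.95, Lyn to 2.17, Add3 to 0.75 and Tmod3 to 1.86. Library totals moved the median of all genes to -0.24 and DESeq2 to 0.18. No paired analysis was possible because the labels give no pairing of WT with P1 mice. Few WT counts limit the size of the largest fold changes.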
